A study of Mus musculus with 8 samples.

Results

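Leukocyte integrins and their adhesion partners were followed in bulk RNA sequencing of the retina from 8 libraries, each made from 1 whole retina. WT libraries came from wild-type mice at postnatal day (P) 15, and rd10 libraries from mutants aged P15, P18 or P21, with 2 libraries in each of the 4 groups. The rd10 mouse is a model of inherited photoreceptor degeneration in which both copies of Pde6b, encoding the beta subunit of the rod phosphodiesterase, carry the rd10 mutation. The labels name no treatment and no strain for any of these mice. The study's methods describe wild-type C57BL/6J mice that were bought in as well as littermate controls of rd10, so which of them gave the WT libraries is unknown. WT retina was sampled only at P15, so that age and genotype change together, and cannot be told apart, wherever rd10 P18 or P21 is set against WT. The 9 genes are Itgal, Itgam, Itgax, Itgb2, Itga4, Icam1, Icam2, Vcam1 and Selplg, out of 57010 gene identifiers in the count table, and each was found by its mouse Ensembl identifier. The set was chosen by the level of Itgal, which had stood out among the larger rises at rd10 P18. The values at rd10 P18 and the zero level of Itgal in WT are therefore given as a description, without a test.

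Integrins are adhesion receptors made of an alpha and a beta chain. Leukocytes carry the beta2 family, in which the chain encoded by Itgb2 (CD18) pairs with an alpha chain: Itgal encodes CD11a (together LFA-1), Itgam CD11b (Mac-1, also called complement receptor CR3) and Itgax CD11c. LFA-1 binds the intercellular adhesion molecules encoded by Icam1 and Icam2, Mac-1 binds ICAM-1, the complement fragment iC3b and fibrinogen, and the alpha4 chain encoded by Itga4 pairs with beta1 to bind VCAM-1. Selplg encodes PSGL-1, the leukocyte ligand of P-selectin. In the retina the beta2 integrins are known from microglia, the resident phagocytes, and from blood leukocytes, whereas ICAM-2 is a product of endothelium and ICAM-1 and VCAM-1 can be induced on endothelium and glia.

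Positions are given on GRCm38 with GENCODE M21 gene models. The 3 alpha chains of the beta2 family lie on 1 strand of chromosome 7: Itgal (ENSMUSG00000030830) at chr7:127296260-127335138, Itgam (ENSMUSG00000030786) at chr7:128062640-128118491 and Itgax (ENSMUSG00000030789) at chr7:128129547-128150657. Itgam and Itgax are neighbours with 11056 bp between them, and Itgal ends 727.5 kb before Itgam. Itgb2 (ENSMUSG00000000290) lies at chr10:77530252-77565708 and Itga4 (ENSMUSG00000027009) at chr2:79255426-79333123, both on the plus strand. Icam1 (ENSMUSG00000037405) lies at chr9:21015985-21028817 on the plus strand, Icam2 (ENSMUSG00000001029) at chr11:106377656-106388075, Vcam1 (ENSMUSG00000027962) at chr3:116109949-116129688 and Selplg (ENSMUSG00000048163) at chr5:113818536-113832644, the last 3 on the minus strand.

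RefSeq promoter sequences, which run from 250 bases before to 50 bases after the start site on GRCm38.p6, were held for 4 of the 9 genes. The promoters of Itgam (chr7:128062390-128062689), Itgax (chr7:128129300-128129599) and Icam1 (chr9:21015690-21015989), all on the plus strand, are shown because these genes were at low or zero counts at P15 and higher at rd10 P18, the first pair as neighbours that share a beta chain. Capitals mark matches, on either strand and with overlaps allowed, to GAGGAA (the core letters of the myeloid factor PU.1), GGNNTTNCC (a kappaB-like pattern) and TTCNNNGAA (a STAT-like pattern).
Itgam: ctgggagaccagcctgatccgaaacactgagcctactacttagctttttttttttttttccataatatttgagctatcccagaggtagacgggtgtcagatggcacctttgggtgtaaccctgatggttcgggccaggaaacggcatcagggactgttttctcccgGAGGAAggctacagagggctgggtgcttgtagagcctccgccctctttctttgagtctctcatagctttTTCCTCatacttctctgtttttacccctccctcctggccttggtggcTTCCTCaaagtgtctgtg
Itgax: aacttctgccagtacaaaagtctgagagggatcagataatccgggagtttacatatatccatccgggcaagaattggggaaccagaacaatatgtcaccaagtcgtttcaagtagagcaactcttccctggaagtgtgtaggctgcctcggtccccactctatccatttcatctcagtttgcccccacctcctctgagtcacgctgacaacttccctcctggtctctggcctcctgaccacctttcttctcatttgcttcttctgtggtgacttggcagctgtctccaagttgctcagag
Icam1: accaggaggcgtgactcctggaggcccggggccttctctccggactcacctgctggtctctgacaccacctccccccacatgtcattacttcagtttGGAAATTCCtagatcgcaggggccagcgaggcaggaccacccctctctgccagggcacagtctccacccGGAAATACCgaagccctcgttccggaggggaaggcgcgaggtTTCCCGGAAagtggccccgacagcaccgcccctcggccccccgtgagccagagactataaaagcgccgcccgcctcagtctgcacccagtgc

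GAGGAA occurred in 28.3% of all 32851 RefSeq promoters of this length, GGNNTTNCC in 16.0% and TTCNNNGAA in 8.3%. The Itgam window held 3 GAGGAA matches, with first bases at -84, -15 and +33 from the start site; 4.82% of all promoters held 2 or more. The Icam1 window held GGNNTTNCC at -153 and -84 and TTCNNNGAA at -42. None of the 3 patterns occurred in the windows of Itgax and Itga4. A match is a run of letters only, and the binding of these factors was not measured here.

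The libraries held 28076947 to 33724562 counts, with a median of 31448681.5. Levels are CPM, counts scaled to the same library size of 1e6, after scaling by the trimmed mean of M values (TMM), with scaling factors from 0.937 to 1.06. All 9 genes were among the 20457 that passed the filter on low counts. A gene was called when its adjusted p was under 0.05 and its log2 fold change over 1 in size, from the quasi-likelihood test of edgeR with Benjamini-Hochberg adjustment over all 20457 genes. With 2 libraries a group, an exact permutation test of a single gene cannot go below p = 0.333, so that the test rests on a spread shared across genes and groups. Sex, read from Y-linked genes and Xist, was female in both WT P15 libraries, male in both rd10 P15 libraries and mixed at rd10 P18 and P21, where replicate 1 was male and replicate 2 female. Summed rod markers were at 44500 to 54800 CPM in WT P15, 32800 to 34800 in rd10 P15, 28700 to 29400 at P18 and 20700 to 27000 at P21, so the tissue label held. The RNA comes from the whole retina, and fewer cells of a type and less RNA per cell cannot be told apart.

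The order of the 9 genes was compared per length, as reads per kilobase of exon and library size (RPKM). Vcam1 was the highest in every group, at a mean RPKM of 1.83 in WT P15, 4.01 in rd10 P15, 7.14 at rd10 P18 and 5.88 at rd10 P21. In WT P15 it was followed by Itga4 at 1.45 and Selplg at 0.944, and the libraries of these 3 genes did not overlap. Icam2 (0.41), Itgb2 (0.321) and Icam1 (0.256) came next, and the libraries of neighbours in this order overlapped. Itgam was at 0.0372, and Itgal and Itgax were at 0. At rd10 P18 Itgb2 had moved to the second place, at 3.05, followed by Itgam at 2.81, Selplg at 2.13, Icam1 at 1.48 and Itga4 at 1.25, with each gene overlapping the next. Icam2 was then at 0.801, Itgal at 0.519 and Itgax at 0.411. At P21 Selplg (2.94) stood second, overlapping Itgb2 (2.03), and Itgam was at 0.656. The values of Itgam are for that identifier alone, which shares exon bases with another identifier, Gm49368. Itgam held 5.48% and 10.1% of the counts on both in WT P15. Its share was 49.7% and 100% at rd10 P18, and 22.8% and 27.0% at rd10 P21. The place of Itgam in this order thus depends on that split, and the sum of both identifiers was not ranked per length.

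**Figure D1:**
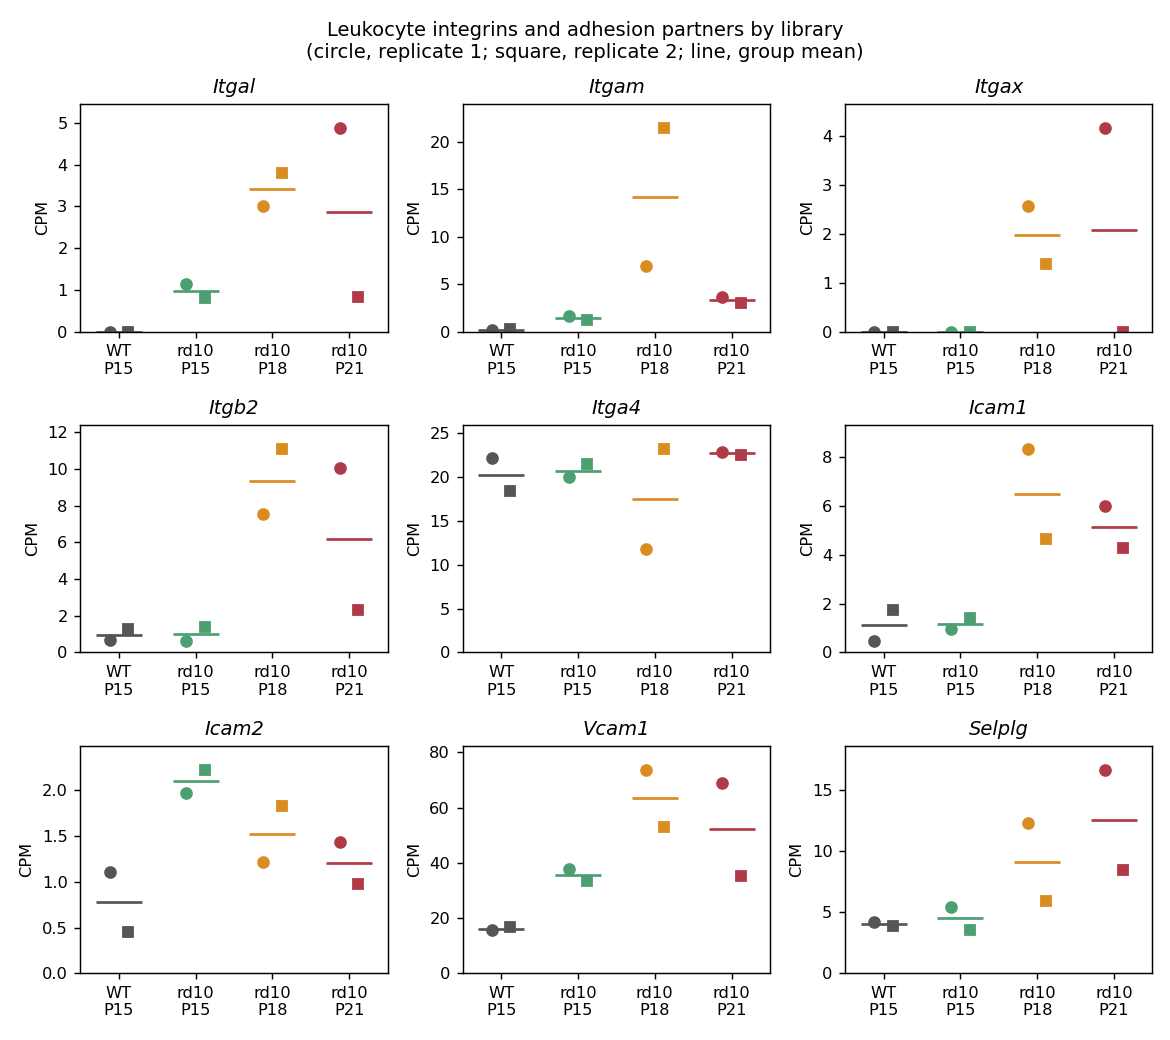
Level of each of the 9 genes in CPM (vertical axis, linear and starting at 0, with its own scale for each gene) in the 4 groups. Circles are replicate 1, squares replicate 2 and lines the mean of the group; Itgal and Itgax are at 0 in both WT P15 libraries, Itga4 has no gap between groups at P15, and replicate 2 of rd10 P21 lies far below replicate 1 for Itgal, Itgax and Itgb2.

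Itgal, the alpha chain of LFA-1, had 0 counts in both WT P15 libraries. A count of 0 over the group allows a level of up to 0.0517 CPM (3 counts over the group, covering counting error only). It was at 1.15 and 0.81 CPM in rd10 P15 replicates 1 and 2, at 3.01 and 3.81 at rd10 P18, and at 4.88 and 0.84 at rd10 P21. Every rd10 library thus held reads of Itgal and no WT library did, and replicate 2 of rd10 P21 was as low as the rd10 P15 libraries. Against WT P15 the group mean was at least 18.9-fold higher at rd10 P15, at least 65.9-fold higher at rd10 P18 and at least 55.3-fold higher at rd10 P21. These 3 comparisons share the WT libraries. Within rd10, the mean was 3.41 ± 0.565 CPM (SD, n = 2) at P18 against 0.978 ± 0.237 at P15, a log2 fold change of 1.80 ± 0.81 (SE). Between P15 and P21 the log2 fold change was 1.55 ± 0.81, with an adjusted p of 0.484, and it was -0.22 without replicate 1 of rd10 P21.

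Itgax, encoding CD11c, had 0 counts in all 4 P15 libraries, WT and rd10 alike. It was at 2.57 and 1.39 CPM at rd10 P18, from 86 and 44 counts. At rd10 P21 replicate 1 held 146 counts, or 4.17 CPM, and replicate 2 held 0. The reads were thus in 3 of the 8 libraries. The mean at rd10 P18 was at least 38.2-fold higher than in WT P15 and at least 39.4-fold higher than in rd10 P15. The value at rd10 P21, at least 41.6-fold higher than rd10 P15, rested on replicate 1 alone. It was not tested, since Itgax passed the filter on low counts only through libraries in which it was high.

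Itgb2, the beta chain that all 3 of these alpha chains need, was detected in every library. At P15 the WT libraries held 0.67 and 1.29 CPM and the rd10 libraries 0.64 and 1.41, so the genotypes overlapped at P15. At rd10 P18 it was at 7.55 and 11.09, and at rd10 P21 at 10.08 and 2.31; all 4 of these libraries lay above all 4 at P15. The log2 fold change at rd10 P15 against WT P15 was 0.05 ± 0.74 (SE; adjusted p = 0.996), and it was -0.71 in a fit with a term for sex. At rd10 P18 against WT P15 it was 3.24 ± 0.76, a 9.51-fold difference of the means. Between rd10 P15 and P21 it was 2.60 ± 0.74, with an adjusted p of 0.204 by edgeR, which missed the threshold, whereas DESeq2 called it at an adjusted p of 0.0159. Without replicate 1 of rd10 P21 it was 1.17 (adjusted p = 0.745).

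Itgam, encoding CD11b, overlaps another gene model. It shares 3450 exon bases on the same strand with Gm49368 (ENSMUSG00000108596), a second protein-coding identifier, and 66.3% of the 50-base windows of Itgam also occur in Gm49368. No other pair among the 9 genes and Gm49368 shared such a window. Reads from the shared bases can go to either identifier in the counting. On Itgam itself, WT P15 held 0.15 and 0.23 CPM, rd10 P15 1.62 and 1.20, rd10 P18 6.86 and 21.42, and rd10 P21 3.63 and 2.97. On Gm49368 the same libraries held 2.55 and 2.01, 3.79 and 3.35, 6.95 and 0, and 12.28 and 8.04. Replicate 2 of rd10 P18 thus had all 680 counts on Itgam and none on Gm49368, whereas replicate 1 had 230 and 233. The share on Itgam ran from 5.48% and 10.1% in WT P15 to 49.7% and 100% at rd10 P18, and back to 22.8% and 27.0% at rd10 P21.

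The sum of both identifiers does not depend on how counted reads were divided between them. The counter is unknown, so shared reads that it may have dropped would be missing from the sum. The sum can also hold reads of Gm49368 alone, since only 70.9% of its 50-base windows were shared. It was 2.47 ± 0.328 CPM (SD, n = 2) in WT P15, 4.98 ± 0.61 in rd10 P15, 17.6 ± 5.38 at rd10 P18 and 13.5 ± 3.46 at rd10 P21, and no library of the P15 groups reached those of P18 or P21. At rd10 P18 against WT P15 the difference was 75.5-fold on Itgam alone and 7.13-fold on the sum, with log2 fold changes of 6.20 ± 0.68 and 2.84 ± 0.33 (SE). At rd10 P15 against WT P15 the log2 fold change was 2.88 ± 0.65 on Itgam (adjusted p = 0.116 by edgeR) and 1.01 ± 0.32 on the sum (adjusted p = 0.241). Itgam alone was under the minimum count of the filter in both WT P15 libraries, so nothing is read from its p-value there. The step from rd10 P15 to P21 was 1.22 ± 0.53 on Itgam (adjusted p = 0.388) and 1.43 ± 0.31 on the sum (adjusted p = 0.113). From rd10 P18 to P21 Itgam alone was lower, with a log2 fold change of -2.10, but the sum gave -0.39 ± 0.30. The sum was chosen after the split had been seen in these data.

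**Figure D2:**
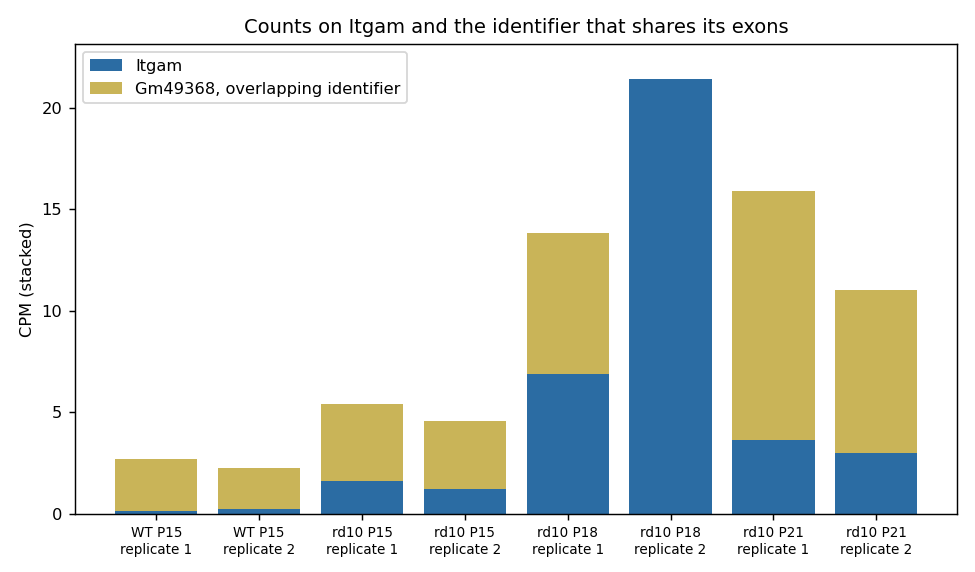
Stacked bars of CPM on Itgam (blue) and on Gm49368 (yellow), the identifier that shares 3450 exon bases with it, in each of the 8 libraries; the vertical axis starts at 0. The share on Itgam changes between libraries, from 5.48% in WT P15 replicate 1 to 100% in rd10 P18 replicate 2, where Gm49368 has no count.

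Itga4, the alpha chain of the VCAM-1 receptor, kept a different pattern. It was at 22.14 and 18.42 CPM in WT P15, at 19.98 and 21.50 in rd10 P15, at 11.81 and 23.22 at rd10 P18 and at 22.92 and 22.55 at rd10 P21. Replicate 1 of rd10 P18 was low and the other 7 libraries lay between 18.42 and 23.22. Log2 fold changes were 0.03 ± 0.29 (SE; adjusted p = 0.988) at rd10 P15 against WT P15, -0.21 ± 0.29 at rd10 P18 against WT P15 and 0.13 ± 0.29 (adjusted p = 0.902) from rd10 P15 to P21. Itga4 shares 1124 exon bases with Cerkl, a retinal gene on the opposite strand at 35.35 to 75.55 CPM. The library protocol in the labels names no step that marks the strand, and the strand setting of the counting was not given, so reads from the shared bases may come from either gene and the level of Itga4 is uncertain.

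Icam1, the ligand of LFA-1 and Mac-1, was at 0.48 and 1.75 CPM in WT P15, against 0.95 and 1.41 in rd10 P15. It was at 8.32 and 4.63 at rd10 P18 and at 6.0 and 4.27 at rd10 P21. The P15 groups overlapped, and all 4 later libraries lay above all 4 P15 libraries. The log2 fold change was 0.07 ± 0.62 (SE; adjusted p = 0.986) at rd10 P15 against WT P15 and 2.53 ± 0.62, or 5.81-fold, at rd10 P18 against WT P15. The latter was 1.90 without WT replicate 1 and 3.74 without WT replicate 2. Against rd10 P15, the rd10 P21 log2 fold change was 2.12 ± 0.61, with an adjusted p of 0.209 by edgeR. DESeq2 called this last difference at an adjusted p of 0.0373. Icam1 shares 511 bases with the antisense identifier Gm47079, which held 57 counts over all 8 libraries.

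Icam2, the endothelial ligand of LFA-1, was highest at rd10 P15. It was at 1.11 and 0.45 CPM in WT P15, at 1.97 and 2.22 in rd10 P15, 1.22 and 1.83 at rd10 P18, and 1.43 and 0.98 at rd10 P21. Both rd10 P15 libraries lay above the other 6. The log2 fold change at rd10 P15 against WT P15 was 1.43 ± 0.62 (SE; adjusted p = 0.405 by edgeR) and 2.20 without WT replicate 1, and from rd10 P15 to P21 it was -0.80 ± 0.61 (adjusted p = 0.64). The endothelial markers Cldn5 and Cdh5 were also higher at rd10 P15: Cldn5 stood at 8.87 and 8.19 CPM in WT P15 against 33.9 and 34.4 in rd10 P15, and Cdh5 at 5.69 and 5.08 against 15.5 and 17.6. Over all 12 endothelial markers the summed level was 359 to 430 CPM in WT P15 against 438 to 485 in rd10 P15. Only part of the 12 genes was higher in both rd10 P15 libraries. The sum was 367 to 440 CPM at rd10 P18 and highest at rd10 P21, at 538 to 627, where Icam2 was below its rd10 P15 level. At P15, summed pericyte markers were at 125 to 129 CPM in WT against 245 to 263 in rd10. Those of the retinal pigment epithelium were at 53.6 to 182 against 283 to 322. The part of these cells in the Icam2 values was not tested.

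Vcam1, the ligand of alpha4 integrins, was the most abundant of the 9 genes per length. It was at 15.85 and 16.67 CPM in WT P15, at 37.90 and 33.28 in rd10 P15, 73.68 and 52.99 at rd10 P18, and 69.09 and 35.31 at rd10 P21. Every rd10 library lay above both WT libraries, and the rd10 P21 libraries spanned those of rd10 P15. At rd10 P15 against WT P15 the log2 fold change was 1.13 ± 0.30 (SE), or 2.19-fold, with an adjusted p of 0.178 by edgeR. DESeq2 called it at an adjusted p of 0.0223, and an edgeR fit of these 4 libraries alone at 0.0214. With a term for sex the log2 fold change was 0.41 (adjusted p = 0.626). The log2 fold change at rd10 P18 against WT P15 was 1.96 ± 0.31, or 3.89-fold. For rd10 P21 against rd10 P15 it was 0.55 ± 0.30 (adjusted p = 0.489), and -0.01 without replicate 1 of rd10 P21.

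Selplg, the P-selectin ligand of leukocytes and also a gene of resting microglia, was at 4.18 and 3.88 CPM in WT P15, against 5.44 and 3.53 in rd10 P15. At rd10 P18 it was at 12.26 and 5.92, and at rd10 P21 at 16.62 and 8.46. The P15 groups overlapped, and all later libraries were above them. The log2 fold change was 0.15 ± 0.45 (SE; adjusted p = 0.939) at rd10 P15 against WT P15, 1.17 ± 0.45 at rd10 P18 against WT P15 and 1.48 ± 0.45 from rd10 P15 to P21 (adjusted p = 0.226 by edgeR). Without replicate 1 of rd10 P18 the P18 value was 0.56.

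At the age where both genotypes were sampled, none of 7 genes was called by edgeR between rd10 and WT at P15, with 0.23% of all genes called in either direction. Itgal was not tested, and Itgax had no count in these libraries and could not be called. Itgam, Icam2 and Vcam1 had an unadjusted p under 0.05, as did 12.3% of all genes. DESeq2 called 2, Itgam (adjusted p = 0.00547) and Vcam1, against 2.09% of all genes. Itgam was also called by edgeR without replicate 1 (adjusted p = 0.0152) or replicate 2 (0.0297) of rd10 P18, libraries outside this comparison. The calls of Itgam rest on that identifier alone, whose share of the reads differed between the groups, and the sum with Gm49368 was not called (adjusted p = 0.241). Itgam also held only 4 and 7 counts in the WT libraries, under the filter's minimum count of 10. It thus passed the filter only through rd10 libraries, in which it was higher, and nothing is read from its p-values in this comparison. In both libraries Itgal, Itgam, Icam2 and Vcam1 were above WT with a log2 fold change over 1, which held for 5.75% of all genes tested. Nothing is read from this count. Itgal chose the set, and Itgal and Itgam passed the filter only through rd10 libraries. Both WT libraries were female and both rd10 libraries male here, so sex and genotype cannot be told apart within these 4 libraries. The median log2 fold change of the 9 genes, Itgal and Itgax included, was 0.15 against -0.01 for all genes, and nothing is read from it either.

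At rd10 P18 against WT P15, 7 of the 9 genes lay above WT in both libraries with a log2 fold change over 1, the exceptions being Itga4 and Icam2. Among all genes tested the same held for 8.78%. Nothing is read from this count, because the genes were chosen with this contrast known. The median log2 fold change was 2.53 against 0.01 for all genes. At rd10 P18 against rd10 P15, which holds the same rd10 P18 libraries, 6 of the 9 genes were higher in this way (8.0% of all genes), with a median of 1.80. At rd10 P21 against WT P15, which holds the same WT libraries, it was also 6 of 9 (7.48% of all genes), with a median of 2.19. Nothing is read from these counts either, because they share libraries with the contrast above.

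From rd10 P15 to rd10 P21, none of 8 genes was called by edgeR, with 0.401% of all genes called. Itgax was left out of the test, as above. The rise of Itgal that chose the set was noted at rd10 P18, a group outside these 4 libraries. The group it was compared with is not known, so the rd10 P15 libraries may have been part of that choice. The filter, the spread and the adjustment are also shared with the other libraries. Itgam, Itgb2, Icam1 and Selplg had an unadjusted p under 0.05, as did 12.8% of all genes, and DESeq2 called 2, Itgb2 and Icam1, against 2.59% of all genes. Itgam, Itgb2, Icam1 and Selplg also lay above rd10 P15 in both libraries with a log2 fold change over 1, compared with 8.11% of all genes. The median of the 9 was 1.48 against 0.01 for all genes. Nothing is read from this median, since it includes Itgal, which chose the set, and Itgax, which was left out of the test. Between rd10 P18 and P21, 8 of the 9 genes overlapped, the exception being Itgam before the sum was taken, and 43.0% of all genes did not overlap.

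**Figure D3:**
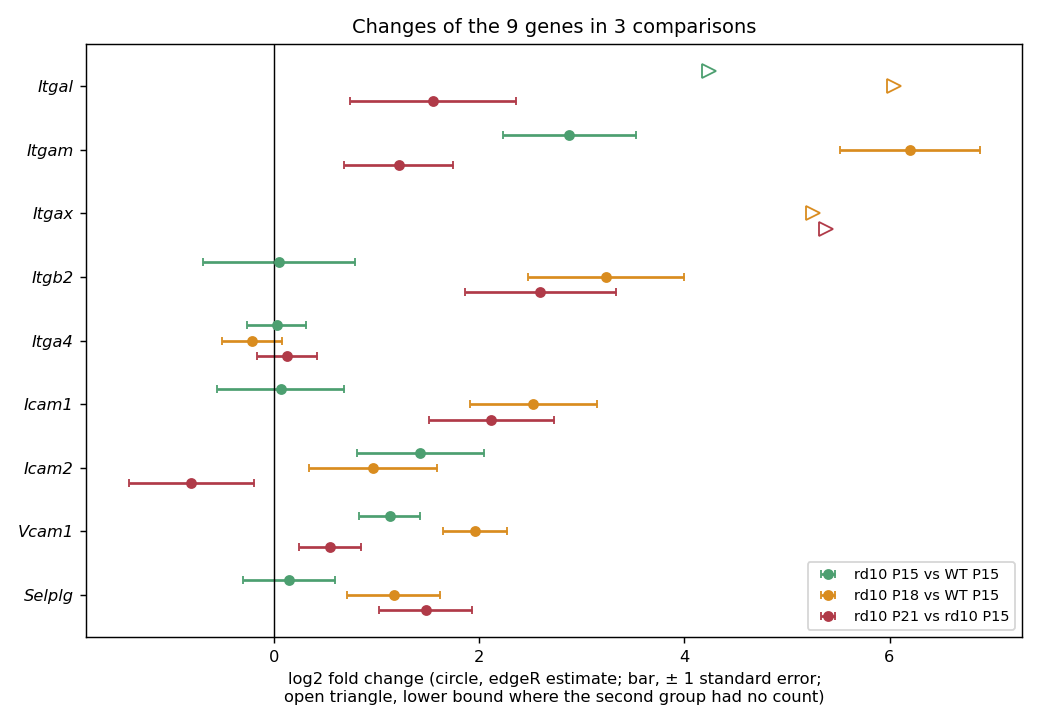
Log2 fold change (horizontal axis) of each gene at rd10 P15 against WT P15 (green), rd10 P18 against WT P15 (orange) and rd10 P21 against rd10 P15 (red), with bars of 1 SE on either side of edgeR's estimate. Open triangles are lower bounds where the second group had no count; Itgb2 and Icam1 sit near 0 at P15 and above 2 in the other comparisons, while Itga4 stays near 0 in all 3.

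Markers of the cells that can carry these receptors were read in the same libraries. The summed level of 15 microglial genes was 79.9 to 93.1 CPM in WT P15 and 120 in both rd10 P15 libraries. It was 299 to 300 at rd10 P18 and 225 to 438 at rd10 P21. The 10 monocyte and macrophage genes summed to 10.8 to 14.7 CPM in WT P15, 17.6 to 21 in rd10 P15, 54.7 to 66.2 at P18 and 50.1 to 53.7 at P21. Among them Ccr2, a receptor of inflammatory monocytes, was at 0.111 and 0 CPM in WT P15, at 0.127 and 0 in rd10 P15, 2.51 and 2.68 at P18, and 2.31 and 0.105 at P21. Ly6c2, Plac8 and Ms4a4c were at 0 in replicate 2 of rd10 P21 and above 1 CPM in both P18 libraries and in replicate 1 of P21. In that same library all 9 genes were below replicate 1, the microglial list summed to 225 CPM against 438 in replicate 1, and the whole monocyte list to 50.1 against 53.7. The part of microglia and monocytes in the levels of the 9 genes was not tested.

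Markers of neutrophils and lymphocytes were low. The 10 neutrophil genes summed to at most 5.08 CPM in any library, with Ly6g, Mpo and Elane at 0 counts in all 8. S100a8, S100a9 and Cxcr2 had no count in either P15 group but were counted at rd10 P18. The 13 genes of T and NK cells summed to 1.29 to 2.99 CPM in WT P15 and 2.49 to 6.38 at rd10 P18. Cd3e, which encodes an invariant chain of the T cell receptor complex, had no count in any library. Cd3d, Cd3g, Cd2, Cd4, Ncr1 and Nkg7 had none in either P15 group but were counted at rd10 P18. Of the 13 genes, 9 and 11 had no count in WT P15 replicates 1 and 2, 10 in each rd10 P15 library and 3 and 9 at P18. B cell genes reached 5.58 CPM at most. The 8 dendritic cell genes, a class known for CD11c, summed to 11.9 to 12.5 CPM in WT P15, 15 to 16.6 in rd10 P15, 10.6 to 11.7 at P18 and 15.6 to 16.2 at P21, and Xcr1 and Clec9a among them had no count before P21. Summed Müller glia markers were 4950 to 5760 CPM in WT P15, 4700 to 4740 at rd10 P18 and 6510 to 7070 at rd10 P21.

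Set against 100 CPM of the microglial list, Itgb2 was at 0.832 and 1.39 in WT P15, at 0.532 and 1.17 in rd10 P15, 2.52 and 3.71 at rd10 P18, and 2.3 and 1.03 at rd10 P21. At P18 it was thus above both P15 groups on this scale too, while replicate 2 of P21 was within them. Vcam1 was at 19.8 and 17.9 in WT P15, at 31.7 and 27.7 in rd10 P15, 24.6 and 17.7 at P18, and 15.8 and 15.7 at P21, so that on this scale only rd10 P15 stood clear of WT above it. Selplg ran from 5.22 and 4.17 in WT P15 to 4.09 and 1.98 at P18, with no library above WT replicate 1. Icam1 was at 0.601 and 1.88 in WT P15 and 2.78 and 1.55 at P18, which overlapped. The sum of Itgam and Gm49368 was at 3.38 and 2.4 in WT P15, at 4.52 and 3.79 in rd10 P15, 4.61 and 7.16 at P18 and 3.63 and 4.9 at P21, above WT in each rd10 group.

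**Figure D4:**
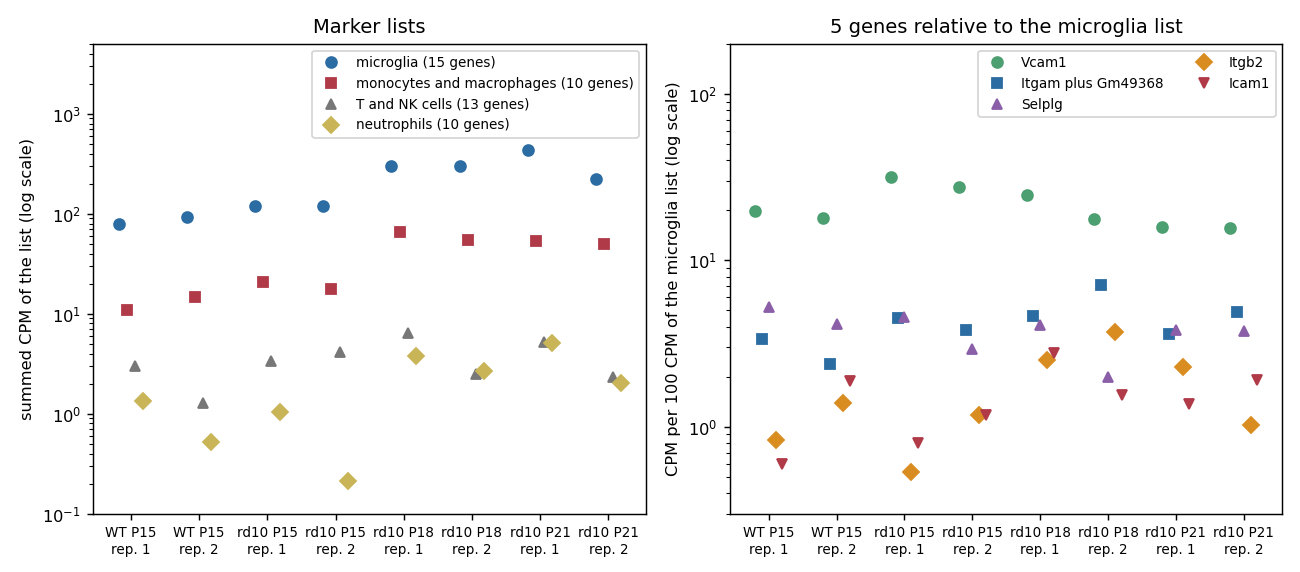
Left, summed CPM (log scale) of marker lists for microglia, monocytes and macrophages, T and NK cells and neutrophils in each library, with microglia between 79.9 and 438 CPM and neutrophils at most 5.08. Right, CPM of 5 of the genes per 100 CPM of the microglial list (log scale), where Itgb2 is highest at rd10 P18 and Vcam1 at rd10 P15.

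Wider adhesion genes were examined in 4 lists of 71 genes in all, of which 62 passed the filter. At rd10 P15 against WT P15, 1 of the 62 was called (1.61%, against the 0.23% of all genes), and 21 had an unadjusted p under 0.05, against 12.3% of all genes. At rd10 P18 against WT P15, 4 were called (6.45%, against 1.48%), and from rd10 P15 to P21, 1 was called (1.61%, against 0.401%). DESeq2 called 9, 13 and 2 of the 62, against 2.09%, 4.64% and 2.59% of all genes. All 6 edgeR calls were of higher levels in the later or mutant group. The median log2 fold changes of the 62 genes were 0.43, 0.62 and 0.24. The lists were chosen with earlier results of these data known, so these shares and medians are a description and nothing is read from them.

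Among other leukocyte adhesion receptors (17 of 21 tested), Cd44, the hyaluronan receptor, was at 10.6 and 8.51 CPM in WT P15, at 13.4 and 9.06 in rd10 P15, 39.6 and 60.1 at rd10 P18 and 44.7 and 33.6 at rd10 P21. It rose by a log2 fold change of 2.39 ± 0.29 (SE) at rd10 P18 against WT P15 (adjusted p = 0.0125 by edgeR) and of 1.80 ± 0.29 from rd10 P15 to P21 (adjusted p = 0.0469). The first call was lost without either WT library, with an adjusted p of 0.0893 at most. The second call held in 8 of the 16 alternatives. In edgeR it was lost with a term for sex (adjusted p = 0.0601) and with the replicate number as a block (0.066). Cd34, a sialomucin of endothelium and progenitors, rose at rd10 P15 against WT P15, from 4.29 and 5.80 to 19.6 and 23.0 CPM. The log2 fold change was 2.08 ± 0.30 (adjusted p = 0.0442 by edgeR). The adjusted p was 0.261 with a term for sex and 0.0828 with the replicate number as a block. The call of Cd34 held in 8 of the 16 alternatives. Selp, encoding the P-selectin that PSGL-1 binds, had no count in any library.

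Of the other integrin subunits, 19 of 21 were tested. Itga5, the alpha chain of the fibronectin receptor, was called at rd10 P18 against WT P15, from 1.59 and 2.01 to 5.31 and 7.72 CPM, with a log2 fold change of 1.85 ± 0.37 (adjusted p = 0.0481). None of the other 18 was called in the 3 comparisons, in which 8, 8 and 2 of the 19 had an unadjusted p under 0.05, against 12.3%, 17.4% and 12.8% of all genes. Itgad, encoding the alphaD chain of the beta2 family, had no count in any library.

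Of 17 genes of integrin activation, Fyb, an adaptor between the T cell receptor or other immune receptors and integrins, was called in the same comparison, from 1.26 and 1.23 to 5.73 and 4.03 CPM, with a log2 fold change of 1.97 ± 0.38 (adjusted p = 0.0455). Of 12 matrix and plasma ligands, 9 were tested. C3, the complement component whose fragment iC3b is bound by Mac-1, was at 3.29 and 2.36 CPM in WT P15, at 0.796 and 1.34 in rd10 P15, 59.1 and 88.4 at rd10 P18 and 86.3 and 20.2 at rd10 P21. It was called at rd10 P18 against WT P15, at a log2 fold change of 4.71 ± 0.77 (adjusted p = 0.0468), and from rd10 P15 to P21 it missed the threshold (5.64 ± 0.82, adjusted p = 0.0673). Fga and Fgb, encoding fibrinogen chains, had no count. Itga5, Fyb and C3 kept their calls in only 7, 6 and 7 of the 16 alternatives. Each call was lost in edgeR with a term for sex (adjusted p = 0.101, 0.11 and 0.101). The same held with the replicate number as a block (0.0794, 0.0687 and 0.082) and when either WT P15 library was left out.

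The pattern over the 8 libraries was set beside that of 15950 other tested genes by Pearson's r of log2 CPM, as a description, since the libraries share their groups and a search over many genes always returns high values. Nearest to Itgal were Cd84 (r = 0.973, n = 8), a receptor of the SLAM family on leukocytes, Tnfaip8l2 (0.971) and Clrn1 (0.969). Nearest to Itgb2 were Dock2 (0.99), a guanine nucleotide exchange factor of leukocytes, Xdh (0.977) and H2-Ab1 (0.975), a class II antigen-presenting chain. Itgax lay nearest to Ifi207 (1.0), Mx1 (0.992) and Ifi205 (0.984), all genes known to respond to interferon; each of the 3 was at 0 in the 4 P15 libraries and in replicate 2 of rd10 P21, as Itgax was. Selplg had Irf7 among its 3 nearest genes (0.96), with Atp1b3 (0.969) and Plscr1 (0.966).

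For Vcam1 the nearest genes were Apol9b (0.991), Acot1 (0.986) and Rnpep (0.981), for Icam1 Fndc5 (0.991), Utp4 (0.983) and Pcolce (0.978), and for Icam2 Bmf (0.975), Gm5940 (0.95) and Angpt2 (0.949), the last an endothelial growth factor. Itgam lay nearest to Bmp1 (0.986), Ror2 (0.984) and Midn (0.979), and this follows the Itgam identifier alone. Itga4 lay nearest to Gm29358 (0.985), Kcnh5 (0.981) and Nfrkb (0.979), which like Itga4 were lowest in replicate 1 of rd10 P18. Among the 9 genes themselves, r was 0.974 for Itgal and Vcam1, 0.922 for Itgax and Itgb2, 0.907 for Itgb2 and Icam1, and between -0.345 and 0.215 for Itga4 with each of the others.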

How the data were processed

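Poly(A) RNA from 1 whole retina a library was sequenced (Illumina NovaSeq), and the authors deposited raw counts per Ensembl gene identifier for 8 libraries. Per the labels, the processing notes name HISAT2. Its version, the counter, the annotation and the genome build were not given in the sources used here. GENCODE M21 (GRCm38) named 52029 of 57010 identifiers, so that partners under newer identifiers could be missed.

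Counts were analysed in R 4.3.3 with edgeR 4.0.16 (limma 3.58.1): TMM scaling, filterByExpr (minimum count 10, total 15), 1 fit of 4 groups, robust quasi-likelihood test, residual degrees of freedom 4. SE is the log2 fold change divided by the square root of F. Correlations used log2 CPM with a prior count of 2. DESeq2 1.42.0, the tool of the authors' own comparisons in another version, was an alternative, and scripts were tested on simulated data. Figures used matplotlib 3.10.9. The labels do not say whether the 2 libraries of a group came from separate animals. At rd10 P18 and P21 the 2 libraries differed in sex and so came from different animals. For the P15 groups this is unknown. The p-values measure the spread between libraries, which may be technical in part.

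The 9 genes and all lists were chosen with earlier results of these data known. Named besides them are all called genes of the 4 adhesion lists (at most 6 a list), the 3 genes nearest in pattern among those with a mean CPM of at least 1, and markers near 0 or moving with a result.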

Additional observations from a re-analysis of the deposited data

How the results depend on the processing

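Each count of calls was recomputed under alternatives that changed 1 choice at a time. Of the 7 genes tested at rd10 P15 against WT P15, 0 were called, against 2 with DESeq2, 1 with only the 4 libraries compared, and 0 to 1 with a library left out. From rd10 P15 to P21 DESeq2 called 2, and leaving out a library gave 0. Of the 62 other adhesion genes, 1 was called at rd10 P15 against WT P15, against 9 with DESeq2 (which called 2.09% of all genes here), 2 with library size only, 2 with no filter on low counts, 5 with only the 4 libraries compared, 0 with a term for sex, and 0 to 6 with a library left out (6 without either rd10 P18 library). At rd10 P18 against WT P15 it was 4, against 13 with DESeq2, 2 with only the 4 libraries compared, 1 with a term for sex, and 0 to 10 with a library left out, the lowest for WT P15 replicate 1 and the highest for rd10 P18 replicate 2. For rd10 P21 against rd10 P15 it was 1, against 2 with DESeq2, 0 with a term for sex and 0 to 1 with a library left out. Same-numbered replicates did not deviate together (correlation of deviations from the group means, -0.025 to 0.059), so the numbers were not taken as pairs. With the replicate number as a block the 3 counts were 0, 1 and 0, and Cd44 at rd10 P18 was the 1 that kept its call (adjusted p = 0.0204). At rd10 P15 against WT P15 and from rd10 P15 to P21, 0 of the genes tested among the 9 were called under the block as well. The cause of these shifts was not tested. Scaling by library size alone moved the median of all genes by 0.12 at rd10 P18 and 0.11 at rd10 P21 against WT P15 on the log2 scale. Small log2 fold changes turned sign at rd10 P15 against WT P15. With a term for sex Itgb2 came to -0.71, Icam1 to -0.60 and Selplg to -0.86, and with a library left out the values ran from -0.63 to 0.61 for Itgb2, from -0.09 to 0.17 for Itga4, from -0.56 to 1.29 for Icam1 and from -0.19 to 0.43 for Selplg. From rd10 P15 to P21 Itga4 came to -0.08 with a term for sex, and with a library left out Itgal ran from -0.22 to 2.32 and Vcam1 from -0.01 to 0.96, both lowest without rd10 P21 replicate 1. Of the log2 fold changes of the 9 genes, 666 recomputed values kept their direction and side of the threshold or stayed within 1 SD, 7 passed the threshold, 10 others moved and 13 turned sign. These 13 are all at rd10 P15 against WT P15 or from rd10 P15 to P21. In the other comparisons a turn of sign was not counted among them. Itga4 at rd10 P18 against WT P15, for example, went from -0.21 to 0.20 without replicate 1 of rd10 P18. With 2 libraries a group, counts under 100 in some or all libraries (Itgal, Itgam, Itgax, Itgb2, Icam1, Icam2) limit what differences can be detected.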
